A study of Mus musculus with 23 samples.

Results

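Eng, Flt1, Emcn, Vwf and Erg are 5 genes that mark endothelial cells, the lining of blood vessels, and their DNA methylation was followed here from embryonic stem cells to skeletal muscle. The members are the fragments that lie between neighbouring CCCGGG sites and overlap the mm9 body of 1 of the 5 genes or the 2000 bp upstream of it. There are 116 such fragments among the 173430 of the deposited table, of which 43 belong to Erg, 26 to Flt1, 25 to Vwf, 12 to Eng and 10 to Emcn. The genes were chosen by measured values of the same libraries, namely calls of their fragments against embryonic stem cells and against muscle, so levels in those groups are a description and carry no test below.

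Endothelial cells depend on signals of vascular endothelial growth factor and of the TGF-beta family, and keep their identity through transcription factors of the ETS family. Endoglin (Eng) is a co-receptor for TGF-beta family ligands, and Flt1 is a receptor that binds vascular endothelial growth factor and limits what reaches other receptors. Endomucin (Emcn) is a mucin-like protein of the endothelial surface, von Willebrand factor (Vwf) is the secreted clotting protein stored by these cells, and Erg is an ETS factor. Muscle cells and stem cells are not endothelial, whereas whole muscle also holds vessels.

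Methylation was read by AIMS-seq. SmaI cuts CCCGGG where the site is unmethylated, XmaI then cuts the sites that remained, and only the XmaI ends take adaptors, so a fragment gives reads when the sites at both of its ends are methylated. The level used throughout is the reads of a fragment per 1000000 reads of its library (RPM). It follows the number of such molecules but is not a percentage of methylation, and it also depends on the length and base composition of the fragment, so levels were compared between libraries and not between fragments.

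The 23 libraries form 9 groups, all of male mice. Embryonic stem cells (ESC) came from the lines CGR8 (129Sv), E14Tg2 (129/Ola) and RD1 (129X1/SvJ), and CGR8 was sequenced as a pair of technical replicates. Myoblasts are muscle precursor cells of C57BL/6J mice grown as cultures 21, 26 and 27 and taken in proliferation at passage 8 to 10, and myotubes are the same cultures after 1, 2 and 4 days in differentiation medium. Passage 0 cells are 2 libraries numbered 26 and 27 (C57BL/6J). Uncultured precursor cells, called fresh below, were taken in 1 library each without injury and 3 days after injury by cardiotoxin (both C57BL/6J). Whole skeletal muscle gave 3 libraries, 2 of 129Sv/C57BL/6J and 1 of C57BL/6J mice. ESC and the muscle groups thus differ in strain as well as in cell type, and neither can be told apart here from the other. The files hold methylation alone, so the labelled cell types could not be checked against expression of their markers, and in whole muscle the share of each cell type and its methylation cannot be told apart.

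Libraries held 6237851 to 14696855 reads, and the 5 genes took 726 to 1313 RPM in all. A property of the libraries touches results below. The share of reads from fragments of at least 200 and under 2000 bp that fell on those with 60% GC or more ranged from 0.0633% (culture 27 at day 2) to 2.90% (culture 27 at day 4). In the first CGR8 library it was 0.0886% and in its technical replicate 0.697%, although both come from 1 line. The threshold of 60% was chosen after seeing the data.

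The fragment at the Eng translation start had lower levels in every ESC library than in any other, so its first 300 bases are shown (mm9 chr2:32502467-32502766, plus strand). Capitals mark the 3 bases left of the CCCGGG site and the start codon, which begins at base 12.
Eng start fragment: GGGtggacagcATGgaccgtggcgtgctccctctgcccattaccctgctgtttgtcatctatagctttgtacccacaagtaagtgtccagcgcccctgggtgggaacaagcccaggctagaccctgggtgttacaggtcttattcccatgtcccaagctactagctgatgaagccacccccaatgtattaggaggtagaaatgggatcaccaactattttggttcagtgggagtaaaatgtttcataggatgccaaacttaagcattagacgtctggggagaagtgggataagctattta

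The share of GC-rich reads of a library went with the levels of some fragments and not of others. A fragment of each kind is shown by its first 120 bases. The Eng fragment with exon 10 (57.3% GC over its 461 bp, mm9 chr2:32533281-32533400) went with it. The Emcn fragment (36.8% GC over its 710 bp, mm9 chr3:137083181-137083300) did not. GC content of the fragment alone did not sort these kinds. A Flt1 fragment of 1524 bp (48.7% GC) went with the share, and the Eng start fragment (48.6% GC) did not. Capitals mark the site end.
Eng exon 10 fragment: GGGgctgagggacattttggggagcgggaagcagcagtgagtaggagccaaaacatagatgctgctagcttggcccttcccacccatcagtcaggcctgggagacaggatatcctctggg
Emcn fragment: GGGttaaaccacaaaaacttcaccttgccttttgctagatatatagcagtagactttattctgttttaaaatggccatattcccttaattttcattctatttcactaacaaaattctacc

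Inside Erg, an array of L1Md_A repeats (a young family of LINE elements) gives short fragments that are nearly alike. The pair with the most reads, each of 156 bp, is shown whole (mm9 chr16:95730566-95730721 and chr16:95730982-95731137, plus strand). Capitals mark the ends and the 8 bases at which the pair differs.
Erg L1Md_A fragment 1: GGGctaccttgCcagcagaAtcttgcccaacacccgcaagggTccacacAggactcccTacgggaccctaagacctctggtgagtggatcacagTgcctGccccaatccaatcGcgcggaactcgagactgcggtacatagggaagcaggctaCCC
Erg L1Md_A fragment 2: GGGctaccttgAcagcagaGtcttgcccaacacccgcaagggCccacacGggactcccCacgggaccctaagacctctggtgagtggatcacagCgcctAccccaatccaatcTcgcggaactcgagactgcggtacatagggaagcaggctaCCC

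Reads of the 5 genes came from few places. Over the 23 libraries the 116 fragments held 247630 reads, and 9 fragments with 10000 reads or more held 87.7% of them. The 33 fragments of at least 200 and under 2000 bp held 95.4% of the reads, the 21 shorter ones 1.55%, the 31 of 2000 bp or more but under 10000 bp 2.73% and the 31 of 10000 bp or more 0.333%. No library had a read in 18 fragments, 67 had 1 to 99 reads and 31 had 100 or more. The map of reads along the genes shows these short stretches. The rule left some well read neighbours out. Past the end of Eng a fragment of 1112 bp had 8831 reads where the last one inside, of 13169 bp, had 25, and before Vwf one of 898 bp had 5074 reads where the first one inside, of 20126 bp, had 17.

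**Figure D1:**
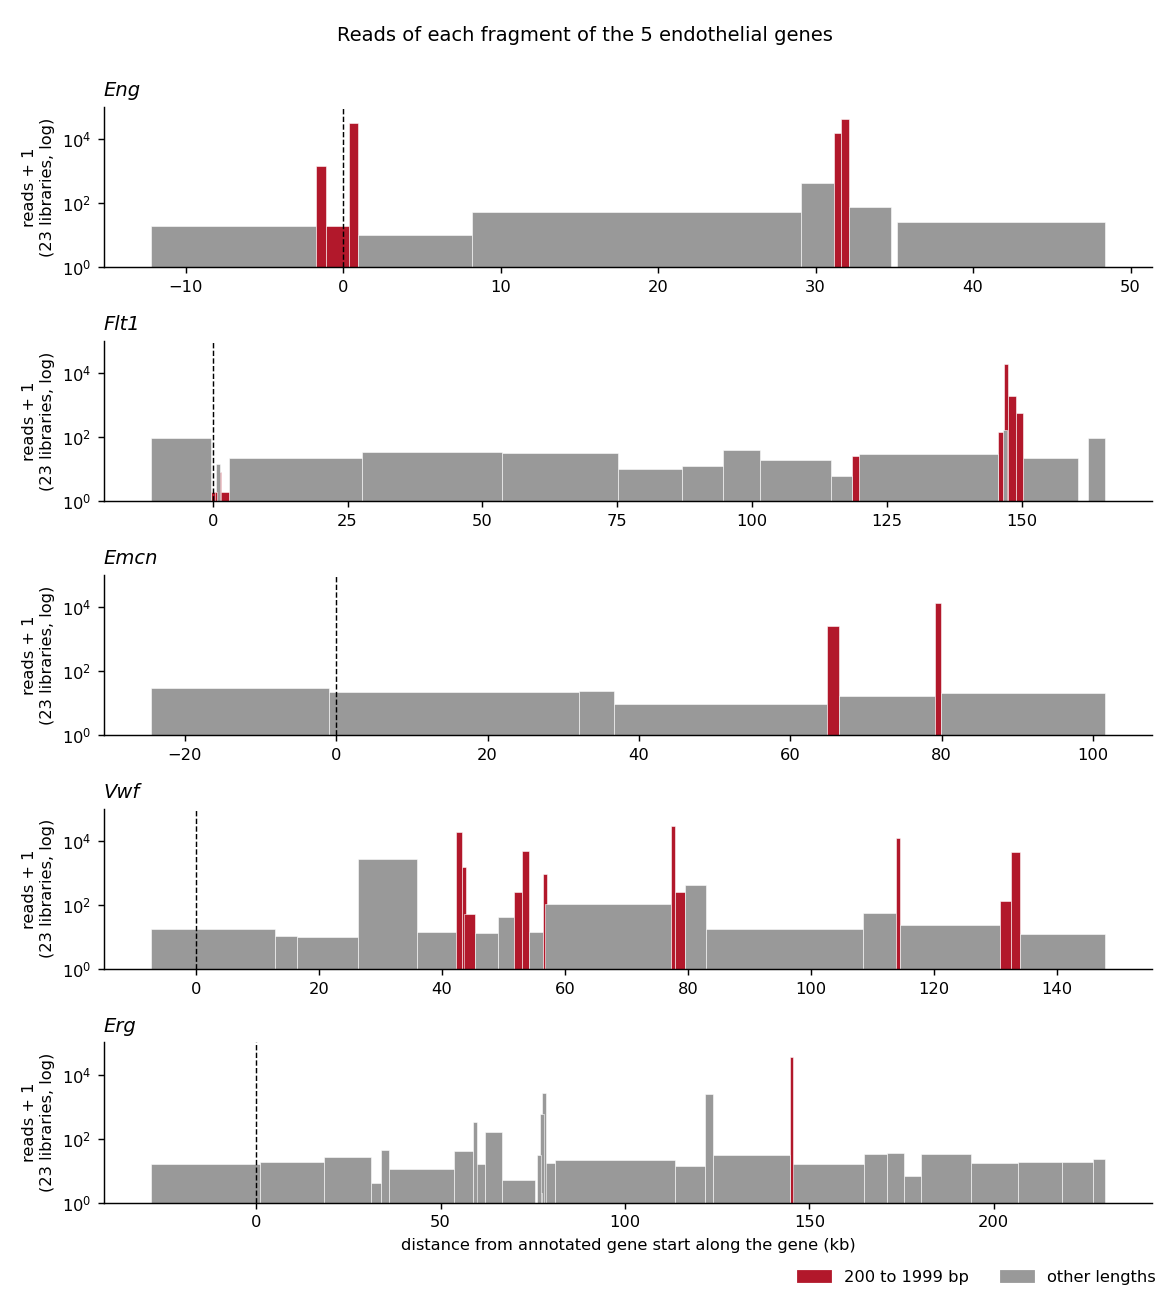
Reads of each of the 116 fragments summed over 23 libraries, plus 1 (y axis, log scale), against the distance from the annotated gene start along the gene in kb (x axis), with very short fragments drawn at a minimum width. Red bars are fragments of at least 200 and under 2000 bp, grey bars other lengths, and the dashed line is the gene start; most reads stand in a few narrow red bars.

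The fragments that hold the annotated starts gave almost no reads in any of the 5 genes. The start of Vwf lies in a fragment of 20126 bp with 17 reads over all libraries, that of Emcn in 33050 bp with 21 reads and that of Erg in 29361 bp with 15 reads, lengths that PCR hardly amplifies, so nothing can be said of methylation there. The start of Flt1 lies in a CpG island, a stretch dense in CpG. Its 6 island fragments under 2000 bp held 1, 7, 14, 1, 0 and 1 reads, 24 in all. They are not too long to amplify, but the one with 14 reads is only 139 bp. Those of 209, 212, 214 and 560 bp have 65.9% to 70.2% GC, and the share of reads on such GC-rich fragments differed between libraries. Their low counts alone were thus not read as a lack of methylation. No island is annotated for Eng in the file, and its annotated start lies in a fragment of 1419 bp with 18 reads, whereas the next fragment downstream held 32903 reads.

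Eng was the gene with the most reads (92306). Its start fragment (mm9 chromosome 2, 32502467 to 32503075, 609 bp, 48.6% GC) runs from 352 to 960 bp past the annotated start and holds the last 78 bases of exon 1, with the start codon, and part of intron 1. Its level was 30.2 RPM in CGR8, 30.9 in the technical replicate, 15.3 in RD1 and 9.67 in E14Tg2. In fresh precursor cells it was 86.4 RPM without injury and 73.8 after injury, and in passage 0 cells it was 96.5 and 145 RPM. All 4 ESC libraries lay below every other library.

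In cultured cells the Eng start fragment stood at 175, 93.1 and 233 RPM in the myoblasts of cultures 21, 26 and 27. It stood at 162, 77.3 and 253 RPM at day 1, at 162, 90.8 and 362 RPM at day 2, and at 173, 103 and 195 RPM at day 4. Culture 27 was highest and culture 26 lowest at 4 of 4 stages, and the stages overlapped. The 3 muscle libraries had 205, 156 and 147 RPM, within the range of the cultures.

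Group means of the Eng start fragment were 18.5 ± 10.8 RPM in ESC (mean ± SD, n = 3 lines), 121 ± 34.5 in passage 0 cells (n = 2), 167 ± 70.4 in myoblasts, 164 ± 88.1 at day 1, 205 ± 141 at day 2, 157 ± 47.9 at day 4 and 169 ± 31.6 in muscle (n = 3 each). The order was day 2, muscle, myoblasts, day 1, day 4, passage 0, fresh uninjured, fresh injured and ESC. Neighbours from day 2 down to passage 0 overlapped in range, and the groups from passage 0 down did not, although each fresh group is a single library.

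The other Eng fragments with many reads followed a different course. A pair of neighbours near the 3′ end, 461 bp with exon 10 (32533281 to 32533741, 57.3% GC) and 463 bp with exon 11 (32533742 to 32534204, 51.8% GC) of the transcript Eng-001, overlap the 2000 bp before a further annotated start. The 461 bp fragment had 4.22 RPM in the first CGR8 library and 84.8 in its technical replicate, a ratio of 20.1, with 127 in RD1 and 64.0 in E14Tg2. In myoblasts it had 20.1, 316 and 70.2 RPM for cultures 21, 26 and 27, and at day 4 it had 5.44, 151 and 102 RPM. Libraries of 1 group thus differed more than groups did.

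The remaining libraries of the 461 bp fragment had 25.6, 154 and 42.7 RPM at day 1 and 21.8, 90.3 and 2.43 RPM at day 2 (cultures 21, 26 and 27). Passage 0 cells had 59.8 and 27 RPM, fresh cells 130 and 126, and muscle 24.0, 53.0 and 40.7. The lowest values belonged to culture 27 at day 2, the first CGR8 library and culture 21 at day 4, which were also the 3 libraries with the smallest share of GC-rich reads.

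The 463 bp neighbour ranged from 47.3 RPM (culture 21 at day 4) to 417 RPM (culture 26 myoblasts), and culture 26 was highest at 4 of 4 stages. ESC libraries had 66.1, 223, 196 and 207 RPM and muscle 115, 139 and 105. The 639 bp fragment upstream of Eng (32500409 to 32501047, -1706 to -1068 bp from the annotated start, 56.5% GC, within reach of the neighbouring gene Ak1) had 0.544 and 9.58 RPM in the CGR8 libraries, 19.3 in RD1 and 25.7 in E14Tg2. It stayed at 0 to 8.67 RPM in all others but culture 26 at day 4 (15.8) and culture 27 at day 4 (26.3).

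**Figure D2:**
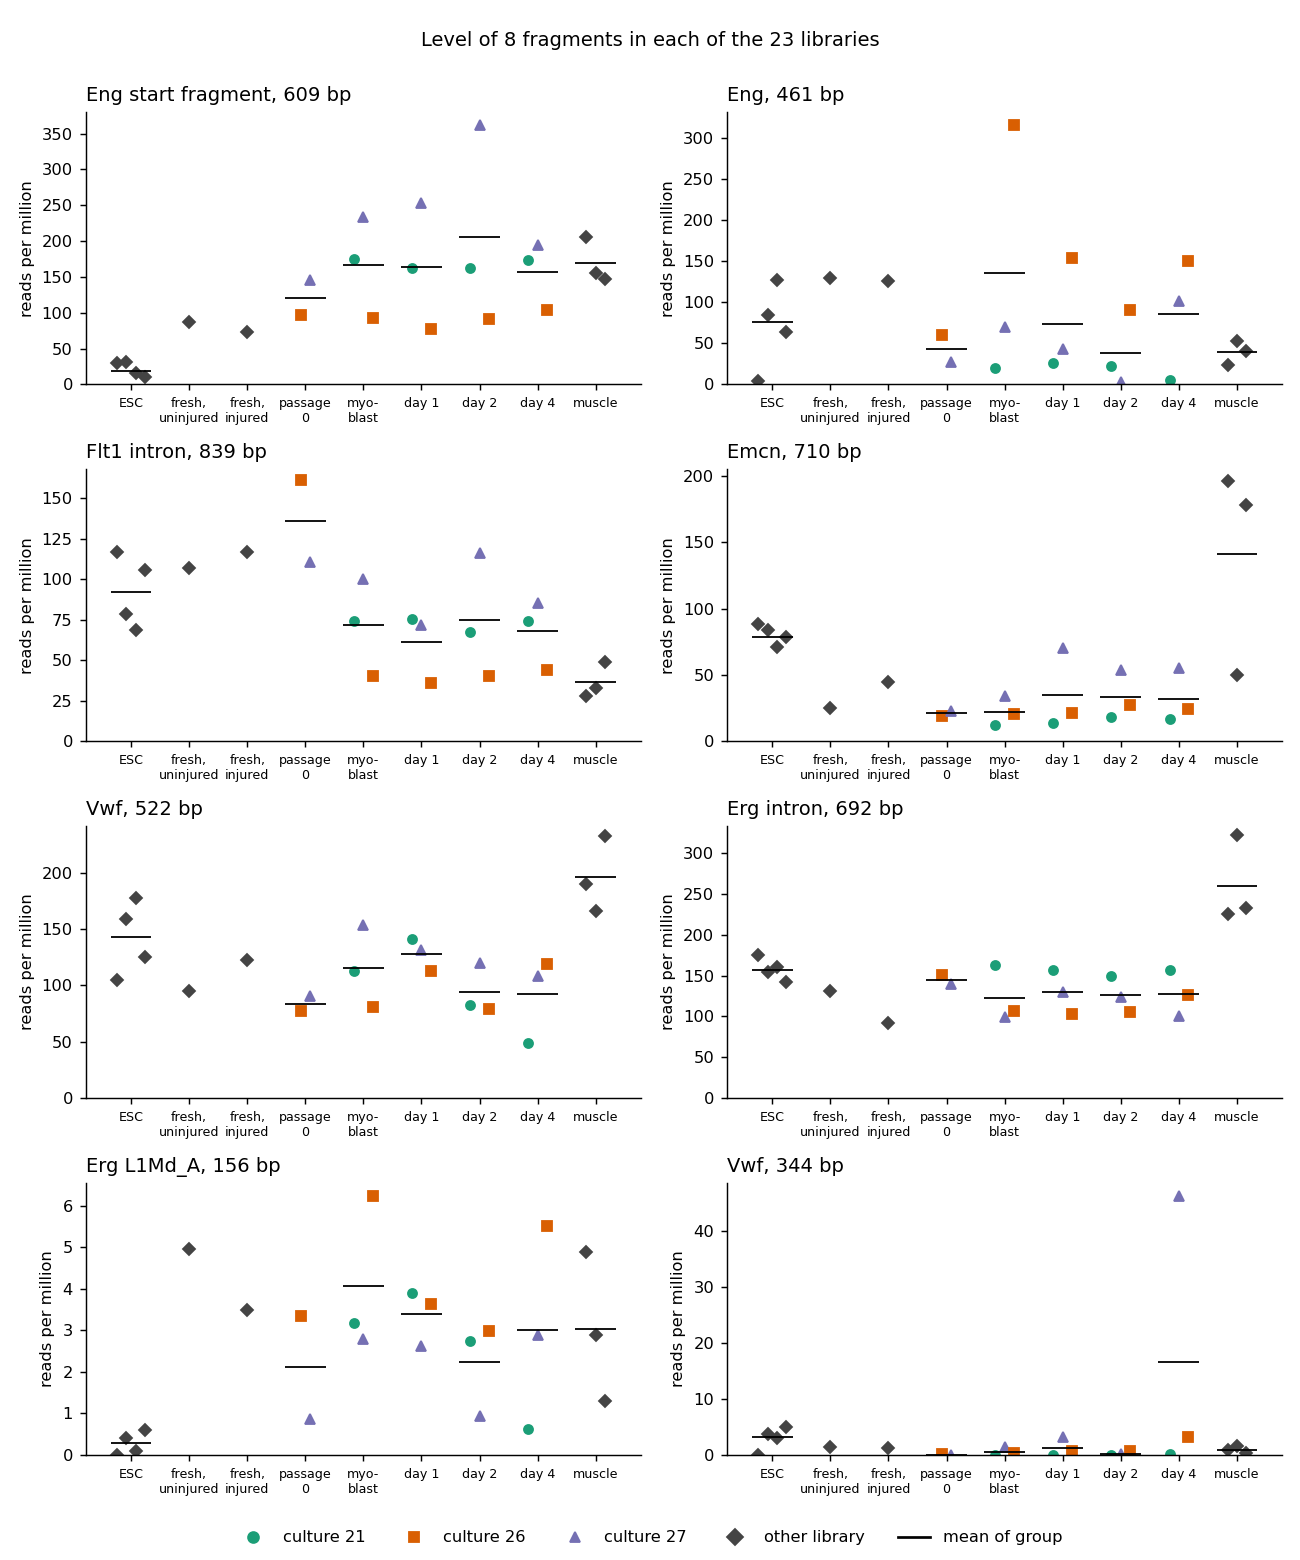
RPM (y axis, linear) of 8 fragments in each library of the 9 groups (x axis); symbols give culture 21, 26 or 27 or another library, and bars the group mean, with the CGR8 libraries counted as 1 line. The ESC points of the Eng start fragment lie below all others, and the 344 bp Vwf fragment is high in 1 library.

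Flt1, the receptor, had 18382 of its 21605 reads in 1 intron fragment (mm9 chromosome 5, 148390074 to 148390912, 839 bp, 49.2% GC, on a B3 repeat) 146675 bp past the start. It had 117 and 78.3 RPM in the CGR8 libraries, 68.5 in RD1 and 106 in E14Tg2, and 107 and 117 in fresh cells without and with injury. Passage 0 cells had 161 and 111 RPM, and myoblasts of cultures 21, 26 and 27 had 74.0, 40.3 and 100. Both passage 0 libraries thus exceeded the 3 myoblast libraries.

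Later stages of the Flt1 fragment gave 75.6, 35.7 and 71.8 RPM at day 1, 67.2, 40.5 and 117 at day 2 and 74.5, 43.9 and 85.1 at day 4, and muscle gave 28.1, 33.0 and 49.2. Culture 26 was lowest at 4 of 4 stages, at the level of muscle, while the passage 0 library with the number 26 was the highest of all 23. The passage 0 libraries share these numbers with the cultures in their titles alone, and no label says that they come from the same animals. The neighbouring fragments of 1257 and 1524 bp, which hold exon sequence, stayed at or below 8.17 and 19.7 RPM.

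Emcn, the surface mucin, had 12794 of its 15347 reads in 1 fragment (mm9 chromosome 3, 137083181 to 137083890, 710 bp), which lies in an intron of the coding transcripts and in exon 7 of the retained-intron transcript Emcn-002. Only 0.702% of all fragments of at least 200 and under 2000 bp have a lower GC content. It stood at 88.5 and 84.2 RPM in the CGR8 libraries, 71.4 in RD1 and 78.7 in E14Tg2. Muscle had 196, 49.9 and 178 RPM, which spans the ESC values.

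The cultured and fresh cells were lower at the Emcn fragment. Fresh cells had 25.2 RPM without and 45.0 after injury, passage 0 cells 19.3 and 23.2, and myoblasts 12, 20.8 and 34.2 for cultures 21, 26 and 27. The same cultures had 13.7, 21 and 70.3 RPM at day 1, 18.6, 27.5 and 53.6 at day 2 and 16.5, 24.1 and 55.5 at day 4. All 14 of these cultured libraries lay below all 4 ESC libraries. Culture 27 was highest and culture 21 lowest at 4 of 4 stages, an order that differs from that of the Eng start fragment.

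Group means of the Emcn fragment were 141 ± 79.7 RPM in muscle, 79.0 ± 7.70 in ESC and 22.3 ± 11.2 in myoblasts (SD, n = 3). Muscle and ESC overlapped in range, ESC and the next group did not, and neighbours from the injured fresh cells down to passage 0 cells overlapped. The second Emcn fragment, 1645 bp in an intron, varied less, from 3.57 to 20.2 RPM.

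Vwf, the clotting protein, had 13 fragments with 100 reads or more, the most of the 5 genes, and no one course. Its most read fragment (mm9 chromosome 6, 125574106 to 125574627, 522 bp, 53.1% GC) holds 71 bases of exon 19. Muscle had 190, 166 and 232 RPM, ESC 105, 159, 177 and 125, fresh cells 95.2 and 122 and passage 0 cells 77.2 and 90.3. Myoblasts had 113, 81.0 and 154 RPM for cultures 21, 26 and 27, and the later stages 141, 113 and 131, then 82.3, 79.3 and 120, then 49.2, 119 and 108. Muscle lay above every cultured library.

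A Vwf fragment of 344 bp with exon 14 (125553214 to 125553557, 56.1% GC) stood out in 1 library. It had 46.3 RPM in culture 27 at day 4 and at most 5.01 RPM (E14Tg2) in the other 22. No read fell on it in the first CGR8 library, in culture 21 as myoblasts or at days 1 and 2, or in 1 passage 0 library. Culture 26 had 3.29 RPM and culture 21 had 0.0789 at day 4.

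A Vwf fragment of 9506 bp (125523241 to 125532746) separated the cultures more than the other 23 fragments of the 5 genes so compared. It had no read in 4 of 4 libraries of culture 21, which allows up to 0.0600 RPM (3 reads over their sum, counting error only). Culture 27 had 18.0 to 32.9 RPM and culture 26 had 5.92 to 8.46. Of the muscle libraries the mixed-strain ones had 37.4 and 48.3 RPM and the C57BL/6J one had none, while ESC had 4.59 to 6.93 RPM, fresh cells 5.29 and 6.97 and passage 0 cells 3.75 and 0.765.

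Of all 173430 fragments, 5 had reads in exactly those 18 libraries and none in the other 5. Between-culture differences made up 98.7% of the sum of squares over the 12 myoblast and myotube libraries of this Vwf fragment. Reads from such a long fragment are few, from 7 to 433 in the libraries that had any. What sets culture 21 and the C57BL/6J muscle apart here was not tested.

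Erg, the transcription factor, had 35499 of its 42241 reads in 1 intron fragment (mm9 chromosome 16, 95662876 to 95663567, 692 bp, 51.3% GC). Muscle had 225, 322 and 233 RPM. ESC had 175, 155, 160 and 142 RPM, fresh cells 131 and 91.6, passage 0 cells 151 and 140, and the 12 myoblast and myotube libraries 98.9 to 163 with a median of 125, with overlap of all stages. Muscle thus lay above all other libraries.

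The L1Md_A array of Erg (95730566 to 95732593, in an intron) has 17 fragments, 8 of 156 bp, 7 of 52 bp and 2 of 208 bp, of which 4 had any read. Fragment 1, shown above, had 2705 reads (60.3% GC) and fragment 2 had 590 (61.5% GC). ESC held 10 reads of fragment 2. The CGR8 technical replicate had 4.66 times the level of the first library at fragment 1, and 4 reads against 0 at fragment 2. Fragment 2 had 0, 0.408, 0.0992 and 0.597 RPM in ESC and 0.631 to 6.25 RPM in all other libraries, so that ESC lay below the rest, although the gap to culture 21 at day 4 was small. Fragment 1 had 1.84, 8.56, 4.17 and 2.51 RPM in ESC and 5.30 to 22.5 in the others, with overlap.

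How well such repeats can be told apart bears on these counts. The sequences of the 3 fragments of 156 bp with reads each occurred once among the 5817 fragments of that length in the genome, whereas those of the 5 without reads occurred in 5 to 258 fragments. Over the genome, 61.0% of the 2432 fragments of 156 bp with a sequence of their own had a read, against 8.98% of the 3385 that share theirs. A count of 0 in this array was thus not read as a lack of methylation, and reads of the shown pair, 94.9% identical, are uncertain.

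The comparisons that follow were tested with edgeR's quasi-likelihood test over all fragments with enough reads, with Benjamini-Hochberg adjustment over all of them and a threshold of 0.05. Of the 116 fragments, 30 had enough reads in some comparison (5 of Eng, 6 of Erg, 2 of Emcn, 5 of Flt1 and 12 of Vwf). The p-values measure the spread between cultures, lines or animals, with n = 3 per group and 2 for passage 0 cells.

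Myotubes were set against myoblasts of the same cultures, which asks whether methylation of these genes shifts as precursors differentiate. The main fit did not pair libraries by culture, so differences between cultures count in its spread. At day 1 no fragment was called of the 23 tested, where 0% of all 22016 fragments were called, at day 2 none of 24 (0% of 21781) and at day 4 none of 24 (0% of 22438). At an unadjusted p under 0.05 there were 0, 0 and 1 of these fragments and 6, 64 and 83 over all, and DESeq2 also called 0 in each comparison. Those over all were 0.0273%, 0.294% and 0.370% of the fragments tested. This is below the share of 0.05 that independent libraries without any change would give. The unpaired test was thus conservative here, and its lack of calls does not show a lack of change. With the culture number as a replicate block edgeR called 0, 0 and 39 fragments over all at days 1, 2 and 4.

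At the Eng start fragment and each gene's most read fragment, day 4 values over myoblasts were near their standard error (SE) or below it. Each SE was derived from the edgeR test, as the absolute log2 difference divided by the square root of the F statistic. The log2 difference was 0.26 ± 0.65 for the Eng start fragment (SE, edgeR adjusted p = 1.00, and -0.092 when scaled by library totals). The most read Eng fragment, of 463 bp, had -0.46 ± 0.73. The difference was 0.72 ± 0.62 for Emcn, 0.27 ± 0.65 for the Flt1 intron fragment, -0.17 ± 0.54 for the Vwf exon 19 fragment and 0.36 ± 0.69 for the Erg intron fragment. At days 1 and 2 the Eng start fragment had 0.18 ± 0.60 and 0.62 ± 0.67, and Emcn 0.94 ± 0.74 and 0.88 ± 0.64. The authors' deposited table gives -0.11 for the Eng start fragment and 0.50 for Emcn, both with an adjusted p of 1. It has no adjusted p under 0.05 for any of its 31 fragments of the 5 genes, beside 8 of all its 26800 fragments.

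Larger log2 differences at day 4 belonged to the 344 bp Vwf fragment (5.00 ± 1.86), the 639 bp Eng fragment (2.10 ± 1.16) and the 1257 bp Flt1 fragment (1.29 ± 1.38), each with an edgeR adjusted p of 1.00. With the culture number as a replicate block edgeR called the Vwf fragment (log2 4.74, adjusted p = 0.00237), as 1 of 39 calls over all fragments, and without the filter on low counts too (5.28, adjusted p = 0.0315). It rests on culture 27, the library with the largest share of GC-rich reads, and without that library the difference was 1.90. In culture 26 the level was 3.29 RPM at day 4 and 0.260 in myoblasts, whereas culture 21 had 1 read at day 4 and none in myoblasts, which shows no direction. The part that GC-rich reads have in it was not tested.

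**Figure D3:**
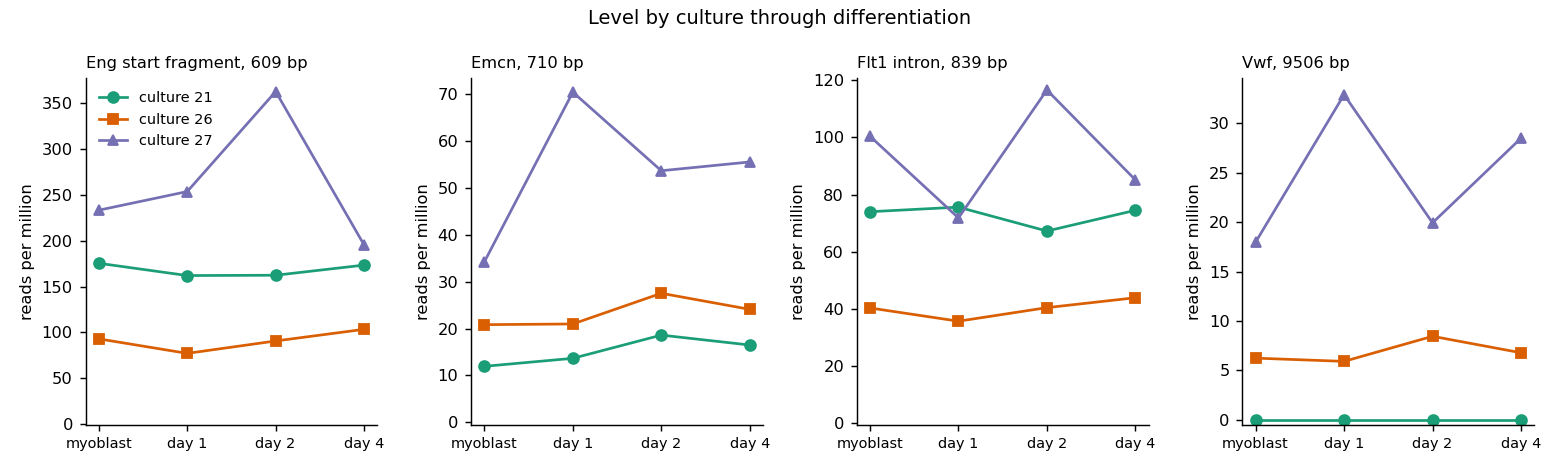
RPM (y axis) of 4 fragments in myoblasts and at days 1, 2 and 4 (x axis), with 1 line for each of cultures 21, 26 and 27. The lines keep their order in the Eng, Emcn and Vwf panels, and culture 21 stays at 0 for the Vwf fragment.

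At the Eng start fragment and the leading fragments of Emcn and Flt1 cultures differed more than stages did, which did not hold for every fragment. For the Eng start fragment 89.5% of the sum of squares over the 12 libraries lay between cultures and 2.13% between stages, for Emcn 87.8% and 7.24%, and for the Flt1 intron fragment 90.1% and 3.00%. For the most read Eng fragment, of 463 bp, it was 56.0% and 19.0%, and for the Vwf exon 19 fragment 24.7% and 26.9%. The median over 24 fragments of the 5 genes was 53.3% between cultures and 15.7% between stages. Over all 22279 fragments it was 51.1% and 13.2%, so the 5 genes as a whole stood near the rest of the table. Culture means of the Eng start fragment were 168 ± 7.10 RPM in culture 21, 91.1 ± 10.8 in culture 26 and 261 ± 71.7 in culture 27 (SD over 4 stages of 1 culture, which are not replicates).

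Myoblasts at passage 8 to 10 were compared with passage 0 cells to ask what changes in culture. None of 24 fragments was called, with 0% of 23419 called over all. At an unadjusted p under 0.05 there were 0 of these fragments and 665 over all, and DESeq2 called 3 over all and 0 of these. The Flt1 intron fragment came closest, with a log2 difference of -1.14 ± 0.57 (edgeR adjusted p = 0.978) between 71.6 RPM in myoblasts and 136 RPM in passage 0 cells. Its groups did not overlap. The number in the titles was also used as a replicate block. No other label gives this pairing, and it was not checked for passage 0 cells. No passage 0 library has the number 21, so myoblasts of culture 21 do not inform the difference in that fit. Its values thus rest on fewer libraries than those of the unpaired fit. The blocked fit called 1034 fragments over all, and the Flt1 fragment was not among them (log2 -1.49, edgeR adjusted p = 0.204).

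The authors' deposited table gives 0.92 for the Flt1 fragment in passage 0 cells over myoblasts (adjusted p = 0.682), the lowest adjusted p of the 31 fragments of the 5 genes there. Over all 26139 fragments of that table, 405 have an adjusted p under 0.05. Emcn (1645 bp) and Vwf (1736 bp) each have 1 more fragment whose ranges did not overlap, with log2 differences of 0.16 and 1.5 and an edgeR adjusted p of 0.986 and 0.978.

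Against ESC and against muscle the same fits serve as a description. The comparisons share libraries, so their values stand side by side only. Myoblasts against ESC gave 4 calls of 26 fragments, 3 higher and 1 lower, where 19.9% of all 25152 were called, 8.22% higher and 11.7% lower. The Eng start fragment was higher by 3.27 on the log2 scale, L1Md_A fragments 1 and 2 of Erg by 2.36 and 4.14, and the Emcn fragment had a change of -1.73. Without E14Tg2 2 calls were left. Day 4 myotubes against ESC gave 1 call of 27 (11.3% of 25497, 5.42% higher and 5.93% lower), the Eng start fragment at 3.64, and none without RD1 or without E14Tg2.

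Muscle against ESC gave 13 calls of 27, 6 higher and 7 lower, where 59.1% of all 22980 were called, 24.4% higher and 34.6% lower. The Eng start fragment stood at 3.94, L1Md_A fragments 1 and 2 of Erg at 3.08 and 4.36, the Erg intron fragment at 1.56, Emcn at 1.61 and the Vwf exon 19 fragment at 1.27. Lower calls were the 639 bp Eng fragment (-2.52), the 1257 bp Flt1 fragment (-3.89), Vwf fragments of 1736 and 3441 bp (-2.06 and -4.86) and Erg fragments of 150, 2137 and 4572 bp (-2.58, -1.44 and -2.87). The median change over all fragments was -0.34, and -1.17 when scaled by library totals, so these changes are relative to the TMM scaling.

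Muscle against myoblasts gave 4 calls of 21 (31.1% of 20274, 13.7% higher and 17.4% lower), with Emcn at 3.21, the Erg intron fragment at 1.58, the Vwf exon 19 fragment at 1.28 and a 1096 bp Vwf fragment at -1.67. No fragment of the 5 genes, and none of all fragments, was called without muscle 1 or without muscle 2, and 1 of the 5 genes was called with a replicate block and 2 with library totals. Muscle against day 4 myotubes gave none of 20 (0% of 19353, with 4613 at an unadjusted p under 0.05 and 2231 by DESeq2, 1 of them of the 5 genes), where Emcn stood at 2.52.

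**Figure D4:**
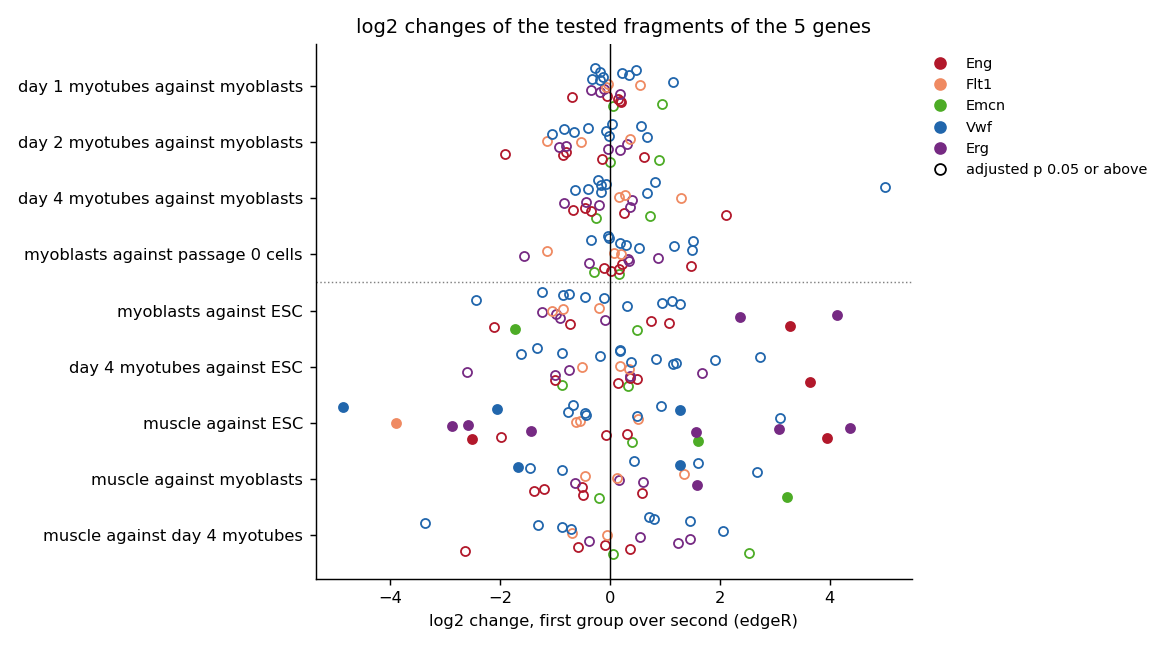
log2 change of each tested fragment of the 5 genes, first group over second (x axis), for the 9 comparisons (y axis), with filled points at an edgeR adjusted p under 0.05 and colours for genes. The 4 comparisons above the dotted line hold no filled point; those below it chose the genes and are a description.

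The share of GC-rich reads of a library moved with several of these levels. Over the 23 libraries the Pearson r of log2(RPM + 1) with the log2 share was 0.926 for the 461 bp Eng fragment, 0.833 for the 639 bp one and 0.828 for the 463 bp one, 0.849 for the 1524 bp Flt1 fragment and 0.694 for the 344 bp Vwf fragment. It was -0.252 for the Eng start fragment, 0.00189 for Emcn, -0.156 for the Flt1 intron fragment and -0.395 for the Erg intron fragment. Among fragments called against ESC or myoblasts, r was 0.750 for the 1257 bp Flt1 fragment and 0.770 for the 1096 bp Vwf fragment. It was 0.404 and 0.465 for L1Md_A fragments 1 and 2 of Erg, 0.118 for the 1736 bp Vwf fragment and -0.0964 for the 150 bp Erg fragment. The part that GC-rich reads have in those changes was not tested. All these r values are descriptions over libraries that share cultures and lines. The CGR8 pair shows the same split without a change of cells. Its technical replicate had 17.6 times the level of the first library at the 639 bp Eng fragment, 1.02 times at the Eng start fragment and 0.951 times at Emcn. At the 1257 bp Flt1 and 1096 bp Vwf fragments it had 8.05 and 4.71 times the level.

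**Figure D5:**
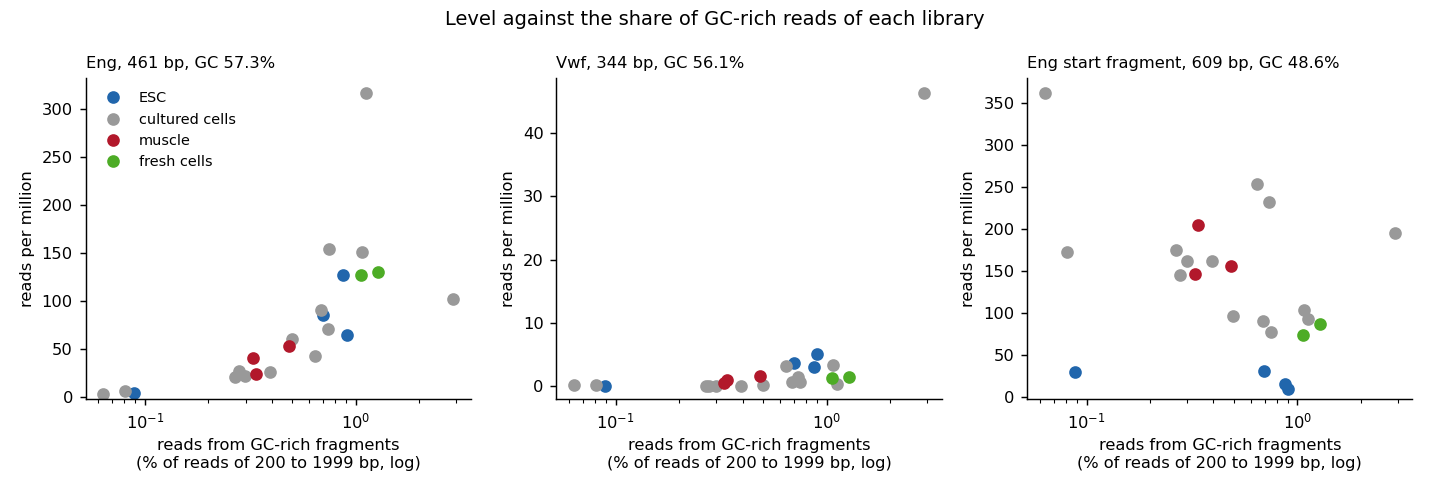
RPM (y axis) of 3 fragments against the share of reads of fragments of at least 200 and under 2000 bp that fall on those with 60% GC or more (x axis, % on a log scale), 1 point per library, coloured by kind of sample. The 461 bp Eng fragment goes up with the share, the 344 bp Vwf fragment is high in the library at 2.90%, and the ESC points of the Eng start fragment are low at every share.

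The difference of myoblasts from ESC at the Eng start fragment was 3.25 with the first CGR8 library alone and 3.53 with the other alone, on the log2 scale. To find fragments with a like course, the 7561 candidates of at least 200 and under 2000 bp outside the 5 genes, each touching 1 gene, were ranked by Pearson r of log2(RPM + 1) over the 23 libraries. Most like the Eng start fragment were fragments of Limch1 (r = 0.947), Plekha4 (0.941) and Ptprm (0.932). Most like Emcn were Nr3c2 (0.944), Mogat2 (0.933) and Lrrc16a (0.930), and most like the Flt1 intron fragment were Treml4 (0.925), Map3k5 (0.912) and Vmn1r222 (0.896). The leading fragments of Erg and Vwf were nearest to Chrm2 (0.863) and Smad9 (0.820).

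The rest of the endothelial programme was read from a list of 42 other endothelial genes, among them the receptors Kdr, Tek and Tie1, the adhesion proteins Pecam1 and Cdh5 and the transcription factors Sox17 and Sox18. They have 239 fragments, of which 19, 19 and 20 were tested at days 1, 2 and 4 and 19 against passage 0, and none was called. Their median change at day 4 was 0.43 on the log2 scale, beside 0.13 over all fragments and -0.12 over the 24 of the 5 genes. Against ESC, 4 of 22 were called lower in myoblasts and 0 higher, where 11.7% and 8.22% of all fragments were. In muscle against ESC 7 were called higher and 8 lower of 22, beside 24.4% and 34.6% of all. In muscle against myoblasts 6 were called higher and 2 lower of 19, beside 13.7% and 17.4% of all.

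Lists of muscle cells and of other cells that a muscle preparation could hold were read in the same way. Of 20 muscle cell genes, 12 fibroblast genes and 12 blood genes (11 in the annotation), no fragment was called at day 1, 2 or 4 or against passage 0. In muscle against myoblasts the muscle cell genes had 10 higher and 8 lower of 32, the fibroblast genes 1 and 0 of 6 and the blood genes 3 and 3 of 13, beside 13.7% higher and 17.4% lower over all fragments. These lists say nothing of how many such cells a library held.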

How the data were processed

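The labels' protocols give an Illumina GA2 sequencer and the mm9 build. Bowtie 0.11.3 and DESeq stand in the submitters' processing notes. The authors deposited raw read counts per fragment and library. Their comparison tables hold log2 ratios and adjusted p-values with pooled dispersion, per the file headers; 184 further per-sample columns were not used. Library totals ranged from 6237851 to 14696855 reads. PCR reads carry no molecular identifiers, so floors cover counting error only.

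All 173430 fragments had CCCGGG at both ends on mm9. Genes came from GENCODE M1 with 2000 bp upstream. The CGR8 libraries were summed to 1 line. Counts of the 2 groups compared were fitted with edgeR 4.0.16 in R 4.3.3 (2-sided quasi-likelihood test, TMM scaling, filterByExpr at min.count 10, adjustment by Benjamini-Hochberg over all fragments, threshold 0.05) and tested on simulated data. The simulated counts held no differences between cultures and gave all fragments the same dispersion, so recovery in the real data can differ. Of 100 changes of 4-fold, 36 were recovered at day 4 against myoblasts and 24 in myoblasts against passage 0. Of 100 changes of 16-fold, 89 and 90 were. A comparison without calls thus does not show a lack of change. Levels are RPM over all reads, with a pseudocount of 1 for correlations. Tables and plots were made with numpy 2.4.6, pandas 2.3.3 and matplotlib 3.10.9. Alternatives were DESeq2 1.42.0, its size factors, library totals, no filter, fragments under 2000 bp, all groups in 1 fit, each replicate left out, either CGR8 library alone and the replicate number as a block. Titles give myoblasts and myotubes the same culture number, and their deviations from the group means correlated (0.507 to 0.880), so the numbers pair these libraries. Passage 0 libraries carry such numbers in their titles only, and their pairing was not checked. None of them has the number 21, so culture 21 does not inform the blocked comparison with passage 0 cells.

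The members, lists and rules were chosen with earlier results of these data known. Named fragments are, per gene, the one of at least 200 and under 2000 bp with most reads, those from 2000 bp before to 500 bp after a start with 100 reads or more, those called in a tested comparison, and those that earlier results named; the 9506 bp Vwf fragment, the first L1Md_A fragment, and further fragments given by count or call were added after their values were seen.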

Additional observations from a re-analysis of the deposited data

How the results depend on the processing

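Counts of called fragments of the 5 genes at days 1 and 2 and against passage 0 were 0 under all settings run, as they were at day 4 except for 1 without the filter on low counts and 1 with the replicate block. Left-out replicates gave 0 to 0 in these 4 comparisons. Against ESC, DESeq2 called 7 in myoblasts and 2 in day 4 myotubes, where it called 6655 and 4592 over all fragments. Day 4 gave 4 without the filter. Left-out replicates gave 2 to 6 in myoblasts, 0 to 4 at day 4 (0 without RD1 or E14Tg2) and 9 to 16 in muscle. In muscle against myoblasts the count was 2 with fragments under 2000 bp, 2 with library totals and 1 with the replicate block, where 1431 of all fragments were called in place of 6309, and 0 to 7 with a replicate left out (0 without muscle 1 or 2). In muscle against day 4 myotubes it was 1 with DESeq2 and 0 to 6 with a replicate left out. The counts over all fragments moved too when a replicate was left out. Against ESC they ran from 3247 to 7421 in myoblasts, 2040 to 6146 in day 4 myotubes and 10828 to 16300 in muscle. They ran from 0 to 8107 in muscle against myoblasts and 0 to 2390 in muscle against day 4 myotubes. The cause was not tested. Muscle and ESC share only a number with the cultures, not an animal.

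Signs turned for some differences that no setting called, among them 0.94 for Emcn at day 1 and 0.62 for the Eng start fragment at day 2. With library totals the Eng start fragment gave -0.031 at day 1 and -0.092 at day 4, and Emcn against passage 0 gave 0.079. With the replicate block, in a fit that culture 21 does not inform, Eng against passage 0 gave -0.11. In the 4 tested comparisons the block changed no call other than that at day 4 given above. With a replicate left out, Eng ran from -0.31 to 0.51 at day 1, -0.14 to 1.07 at day 2, -0.28 to 0.55 at day 4 and -0.31 to 0.78 against passage 0. Emcn ran from -0.12 to 1.30 at day 1 and -0.64 to 0.12 against passage 0, and L1Md_A fragment 2 of Erg from -0.43 to 0.33 at day 1 and -1.17 to 0.019 at day 4. Few reads limit the precision of fragments such as this last one.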
